A study of Mus musculus with 3 samples.

Results

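Natural killer (NK) cells of the lung and of the blood were compared in naive mice. Both tissues were sequenced in 1 droplet library, so the cells shared reagents, emulsion and sequencing run and were told apart by hashtag antibodies, which label cells of a tissue before pooling. The mice were wild-type females of 9 weeks on the C57BL/6 background, without tumor cells or other treatment, and the study states replicate mice for the sequencing, but cells carry no label of the animal. Live NK1.1+NKp46+ cells were sorted. A barcode was kept if between 800 and 5000 genes were detected in it and mitochondrial transcripts made up 6% of its counts or less. Of these, 3676 had at least 90% of their hashtag counts on tag B0304, read as lung, and 4367 on tag B0306, read as blood, which together are 8043 of the 21754 cells in the series. Which tag marks which tissue was read from the order of naming in the methods (lung before blood, B0304 before B0306). No label states it, and an exchange of the tags would turn the direction of every ratio. The other 2 libraries came from the same kind of mice 6 h and 14 days after intravenous PyMT mammary tumor cells and are used here only to see the same ratio again.

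NK cells are cytotoxic innate lymphocytes that recirculate through blood and are abundant in the capillaries of the lung. They integrate signals from activating and inhibitory receptors, kill with granzymes and perforin, and answer cytokines such as IL-12, IL-15 and IL-18. In the mouse they mature from CD27-high to CD11b-high (gene Itgam) stages, with the loss of homing receptors of the lymph node and bone marrow and the gain of cytolytic genes.

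The lung cells held 23468585 UMIs and the blood cells 29979116, where a UMI is a molecular tag that counts 1 captured transcript. Lung and blood cells had medians of 5909.5 and 6351 UMIs, 2460.5 and 2615 genes and 2.93% and 2.84% mitochondrial counts. Another 342 of 8385 barcodes had neither tag at 90% and a median of 11721.5 UMIs, and were left out. At least 3 of 8 markers of the labelled NK cells were found in 3676 of 3676 lung and 4366 of 4367 blood cells. The sort itself used the products of Ncr1 and Klrb1c, which are among the 8, and RNA free in the droplets held these markers too. This count therefore cannot tell NK cells from other cells that pass the sort. Hba-a2, Pf4, Cdh5, Sftpc and C1qa, markers of erythrocytes, platelets, endothelium, alveolar epithelium and macrophages, were at 0 in both tissues. Other markers of these cell types were detected. At least 1 of 10 endothelial markers was found in 42.9% of lung and 46.4% of blood cells, and at least 3 in 0.027% and 0.046%. At least 1 of 7 platelet markers was found in 6.34% and 6.23%. The naive library shared 16 cell barcodes with the 6 h and 11 with the 14-day library. Free RNA in the droplets could make up at most 3.42% of the blood counts and 15.1% of the lung counts, judged from Lyz2 of myeloid cells. With 1 library there is 1 sample per tissue, so no test was made. Sums of counts are given as counts scaled to a total of 1000000 (CPM), and ratios are log2 values of lung over blood. Their 95% exact intervals cover counting error and not the spread between cells or between mice. The preparation differed with the tissue. Lungs were perfused, minced and digested with collagenase and DNase, while blood was drawn before the perfusion and only freed of erythrocytes. Tissue and preparation cannot be told apart in any ratio below.

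Of 6640 genes with at least 20 CPM in either tissue, 429 (6.46%) were at least 1.5-fold higher in lung and 203 (3.06%) at least 1.5-fold lower. The higher side held the large ratios. At 2-fold the counts were 221 (3.33%) and 27 (0.407%), and at 4-fold they were 68 and 0. The median log2 ratio over all genes was -0.085, with 10th and 90th percentiles of -0.39 and 0.38. With TMM scaling 516 genes were higher and 122 lower, so that 80.9% in place of 67.9% of these genes were on the higher side. Just past the threshold lay Madd (0.59) on the higher and Apobec3 (-0.59) on the lower side, and just short of it Zc3hav1 (0.58) and Cmtm7 (-0.58). The remaining genes lay along the diagonal over the whole range of expression, as the plot of the summed counts shows.

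**Figure D1:**
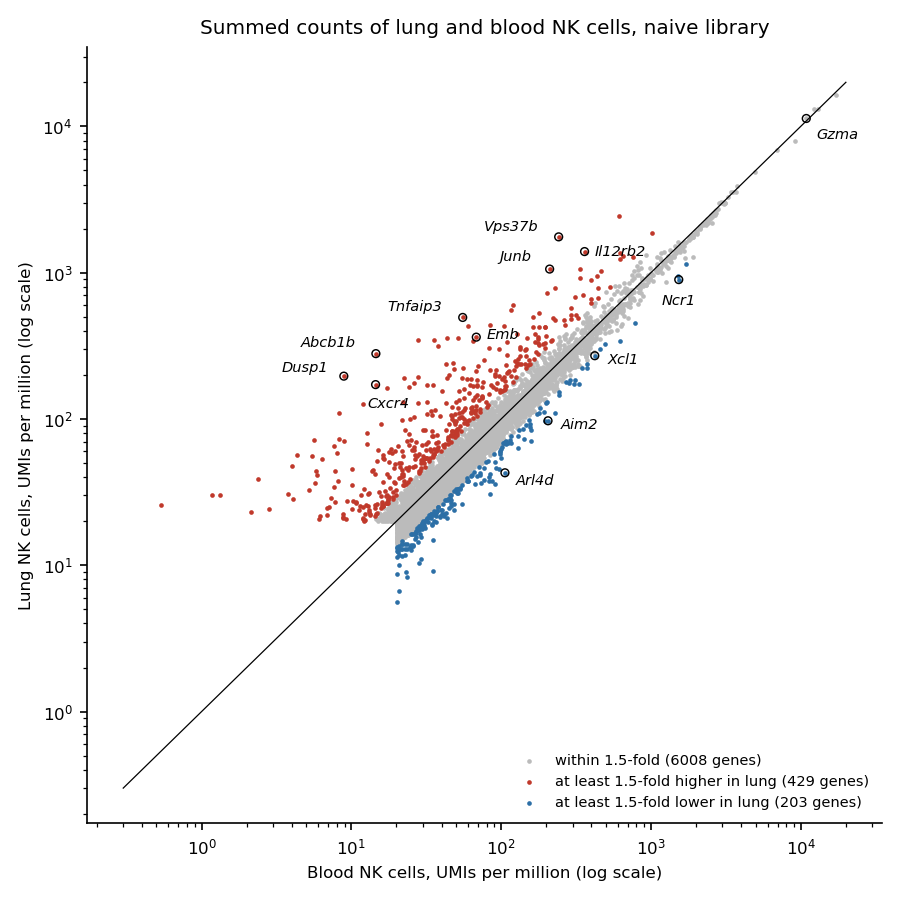
CPM of lung (vertical) against blood NK cells (horizontal) for the 6640 genes with at least 20 CPM in either tissue, both axes on a log scale, 1 point per gene, with the line of equal values. The 429 genes higher in lung reach farther from the line than the 203 lower ones, and Dusp1, Abcb1b and Cxcr4 stand apart from it at low blood levels.

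The largest ratio among genes with at least 50 CPM was that of Dusp1, a phosphatase that switches off MAP kinases (ENSMUSG00000024190, annotated by GENCODE M21 on chromosome 17 from 26505590 to 26562128 of GRCm38). Lung cells had 196 CPM of Dusp1 (95% CI 191 to 202) and blood cells 8.91 (95% CI 7.87 to 10.0), a log2 ratio of 4.46 (95% CI 4.28 to 4.64). At least 1 UMI of Dusp1 was found in 55.7% of lung and 4.76% of blood cells. With all cells reduced at random to 3000 UMIs these shares were 37.4% and 2.21%. Of the Dusp1 level in blood, at most 4.66 CPM could stem from free RNA. Most blood cells thus showed none of a transcript that many lung cells held.

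Several of the other 14 genes at the top of this ranking encode regulators of transcription or signalling. Crem, a transcription factor of the cyclic AMP response, had 345 CPM in lung and 35.6 in blood (log2 ratio 3.27, 95% CI 3.18 to 3.37). Sik1, a kinase that restrains CREB coactivators, had 110 and 8.24 CPM (3.74, 95% CI 3.55 to 3.93). Tnfaip3, which encodes the NF-κB inhibitor A20, had 494 and 55.4 CPM (3.16, 95% CI 3.08 to 3.23), and Cebpb, a transcription factor of inflammatory genes, 127 and 11.97 CPM (3.41, 95% CI 3.25 to 3.57). Others act at the surface or in transport. Cxcr4, the receptor for CXCL12 that holds leukocytes in bone marrow, had 172 CPM in lung and 14.5 in blood (3.56, 95% CI 3.42 to 3.71). Abcb1b, an efflux pump, had 280 and 14.6 CPM (4.26, 95% CI 4.12 to 4.40). The log2 ratio was 3.65 for Litaf, an endosomal membrane protein, 3.13 for the amino acid transporter Slc16a10 and 3.09 for Trf, transferrin. Vegfa, the endothelial growth factor, was at 72.0 and 5.60 CPM (3.68, 95% CI 3.45 to 3.92), and Irs2, an adaptor of insulin signalling, at 56.7 and 4.30 (3.72, 95% CI 3.46 to 3.99). Dgat1 of triglyceride synthesis (3.24), Dock4, an activator of small GTPases (3.36), and the elongation factor Ell2 (3.09) complete the ranking.

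The smallest ratios were nearer to 0. Arl4d, a small GTPase, had 42.9 CPM in lung and 106 in blood (-1.31, 95% CI -1.41 to -1.20). Trim14, an adaptor of antiviral signalling, had 70.9 and 158 CPM (-1.15, 95% CI -1.24 to -1.07), and Aim2, the sensor of cytosolic DNA, 97.2 and 205 CPM (-1.08, 95% CI -1.15 to -1.01). Klrc3, an NKG2 receptor chain with near-identical relatives that may share its reads, had 37.7 and 82.8 CPM (-1.14, 95% CI -1.25 to -1.03). Crtam, a receptor of NK and CD8 T cells, had 26.0 and 54.4 CPM (-1.06, 95% CI -1.20 to -0.93), and Bcl2l1, which encodes the survival factor Bcl-xL, 40.1 and 82.4 CPM (-1.04, 95% CI -1.15 to -0.93). Nrros, which tethers latent TGF-β at the surface of myeloid cells, was at -1.09, and the urea transporter Slc14a1 at -1.21. AI467606 (-1.45), Gm37004 (-1.35), Rcsd1 (-1.05), Slc44a2 (-1.02), Ms4a6c (-1.02), Sh2d3c (-1.02) and Cln3 (-1.02) make up the 15. No gene of this set reached a factor of 3, whereas each of the 15 at the other end exceeded 8.

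**Figure D2:**
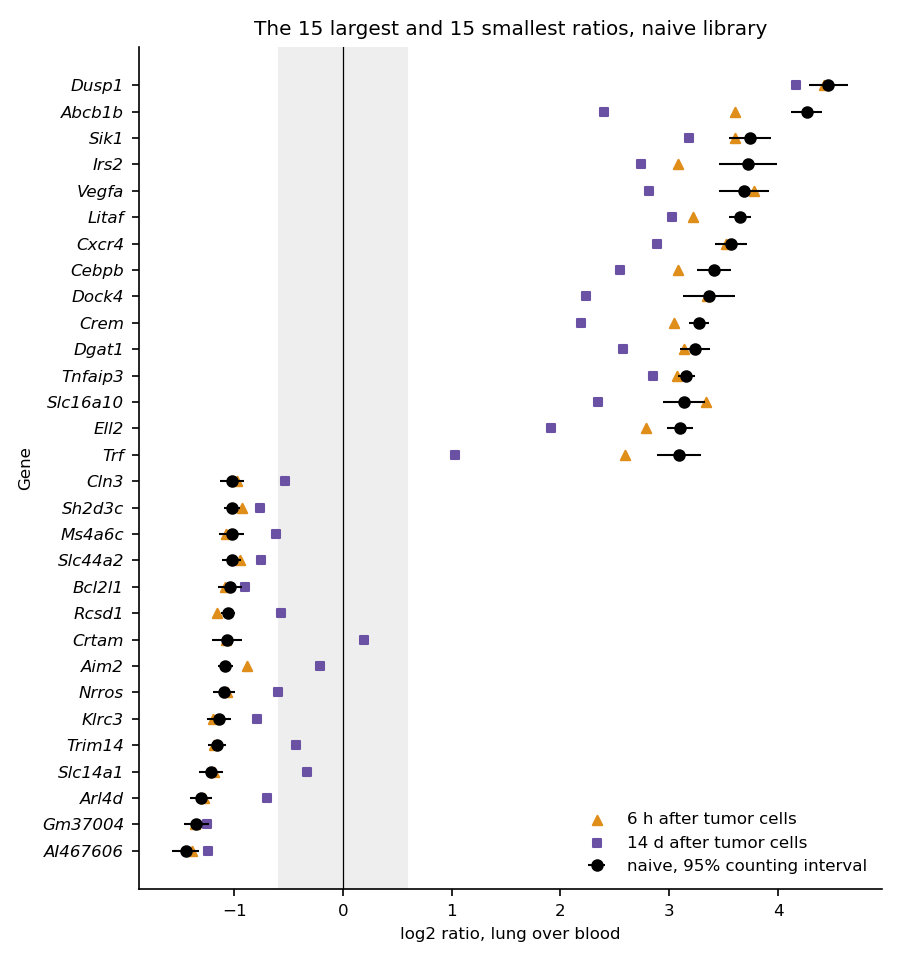
The 15 largest and 15 smallest log2 ratios of lung over blood among genes with at least 50 CPM. Black points are the naive library with 95% counting intervals, triangles the 6 h and squares the 14-day library, and the grey band marks ratios under 1.5-fold. The 14-day value is nearer to 0 than the naive one for each of these 30 genes, and at 6 h Abcb1b (3.61) is nearer to 0 too.

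Promoter sequences are given for 4 genes, because a cyclic AMP response element (CRE) can be read from letters and members of this response had large ratios. The 250 bases before the start site come from RefSeq on GRCm38.p6, 5′ to 3′ on the strand of the gene, and capitals mark the CRE core TGACG on either strand, which overlaps with itself in the full palindrome TGACGTCA. Dusp1 (chr17:26508473-26508722, minus strand) and Ell2 (chr13:75707234-75707483, plus strand) were among the 15 genes highest in lung and hold the full element, Nr4a2 (chr2:57124004-57124253, minus strand) holds 4 cores, and Arl4d (chr11:101665291-101665540, plus strand) was among the 15 lowest in lung and holds the full element too.
Dusp1: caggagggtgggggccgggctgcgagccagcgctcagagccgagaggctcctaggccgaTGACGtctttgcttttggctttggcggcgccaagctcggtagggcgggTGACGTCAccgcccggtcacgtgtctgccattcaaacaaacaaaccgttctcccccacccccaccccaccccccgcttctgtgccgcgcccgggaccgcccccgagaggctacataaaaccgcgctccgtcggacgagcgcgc
Ell2: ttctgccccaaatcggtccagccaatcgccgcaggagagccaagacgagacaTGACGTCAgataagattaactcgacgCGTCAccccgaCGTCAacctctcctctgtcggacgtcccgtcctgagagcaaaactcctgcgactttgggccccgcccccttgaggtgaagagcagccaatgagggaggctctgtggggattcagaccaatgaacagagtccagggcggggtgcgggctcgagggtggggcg
Nr4a2: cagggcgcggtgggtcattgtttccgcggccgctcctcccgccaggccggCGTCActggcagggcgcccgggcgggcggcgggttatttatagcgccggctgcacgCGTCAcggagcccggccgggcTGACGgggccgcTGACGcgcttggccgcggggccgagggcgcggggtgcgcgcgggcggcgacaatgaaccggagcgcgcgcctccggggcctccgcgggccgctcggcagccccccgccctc
Arl4d: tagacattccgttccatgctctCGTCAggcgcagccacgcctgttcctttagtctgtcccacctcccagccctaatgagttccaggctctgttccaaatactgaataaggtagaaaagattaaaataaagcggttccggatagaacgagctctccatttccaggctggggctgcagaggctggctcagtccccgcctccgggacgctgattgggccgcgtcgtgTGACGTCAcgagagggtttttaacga
Of the 15 genes highest in lung, 11 had a promoter in the RefSeq table, and 6 of these held at least 1 TGACG core (Cebpb, Dock4, Dusp1, Ell2, Tnfaip3 and Vegfa). Crem, Sik1, Dgat1 and Trf had no promoter there, so Crem and Sik1 of the cyclic AMP response were not searched. Of the 15 lowest, 11 had a promoter and 1 held the core. Among all 5391 genes tested that had a promoter, 34.2% held the core and 3.45% the full element, while the share over all 32851 promoters of the table was 17.8% and 1.55%. The element was thus found at both ends of the ranking, and a match is no evidence of binding.

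The immediate early genes, which cells transcribe within minutes of a stimulus, were the list with the highest median. Over all genes, 6.46% were higher and 3.06% lower, and these shares are the background for every count of list members below. Of 25 listed genes 20 had at least 20 CPM, of which 13 were at least 1.5-fold higher in lung, 2 lower and 5 in between, and their median log2 ratio was 1.31 against -0.085 for all genes. Nr4a2, an orphan nuclear receptor, had 432 CPM in lung and 59.7 in blood (2.86, 95% CI 2.78 to 2.93). Fosl2 and Fos, subunits of the AP-1 transcription factor, were at 175 and 26.4 CPM (2.73, 95% CI 2.62 to 2.84) and at 80.3 and 12.8 CPM (2.65, 95% CI 2.49 to 2.81). Junb, their partner, was chosen after its value was seen and had 1058 and 211 CPM (2.33, 95% CI 2.29 to 2.37). The Egr genes, zinc finger factors of the same early wave, went the other way. Egr1 had 23.8 CPM in lung and 48.1 in blood (-1.02, 95% CI -1.16 to -0.87), and Egr3 6.65 and 20.9 (-1.65, 95% CI -1.92 to -1.40). Lung cells therefore did not hold more of every early transcript, and a member such as Zfp36, which destabilizes cytokine mRNAs, stood at -0.15.

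This difference was spread over most cells and not held by a few. With all cells reduced to 3000 UMIs, 3590 lung and 4292 blood cells remained. The 25 immediate early genes together gave a median of 21 UMIs per lung cell (5th to 95th percentile 9 to 40) and of 8 per blood cell (3 to 18). Of the lung cells, 62.2% exceeded the 95th percentile of the blood cells. Both distributions overlapped, as the histogram of UMIs per cell shows. Junb was found in 80.8% of thinned lung and 42.8% of thinned blood cells (90.7% and 65.9% without thinning), and Nr4a2 in 58.3% and 10.7% (73.3% and 18.9%). The sort held no cell type that should lack these genes, so no background share can be given.

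**Figure D3:**
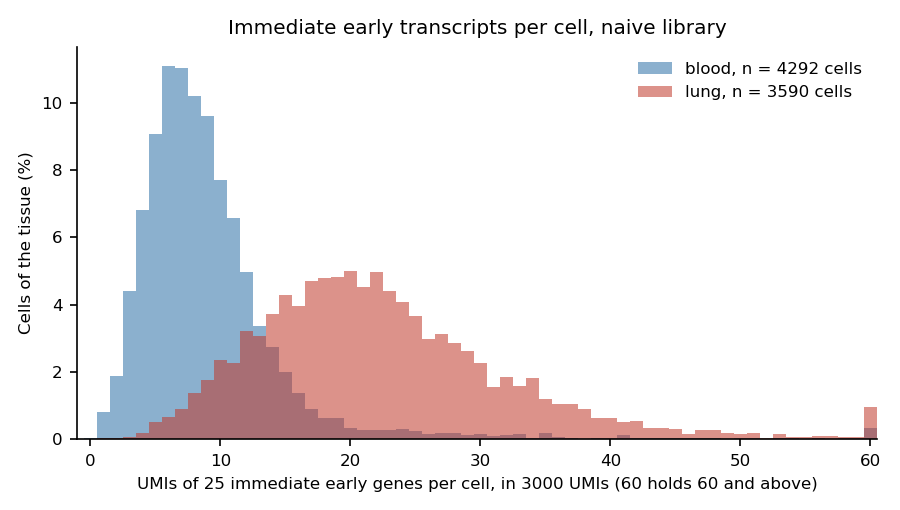
Share of thinned cells (percent of each tissue, vertical) by the summed UMIs of 25 immediate early genes in 3000 UMIs (horizontal), for 4292 blood cells in blue and 3590 lung cells in red. The lung distribution lies to the right of the blood distribution with medians of 21 and 8, and the bar at 60 holds all cells with 60 or more.

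Heat shock genes, which are markers of protein damage, were mostly slightly above all genes. Of 15 listed chaperones 11 had at least 20 CPM and 0 were past 1.5-fold. Their median was 0.18, with a highest value of 0.43 for Hspa5 and a lowest of -0.03 for Hspe1. All 11 thus lay above the median of all genes (-0.085). Below the minimum, Hspa1a was at 1.15 CPM in lung and 0.400 in blood (1.52), and Hspa1b at 3.20 and 1.33 (1.26). In the unfolded protein response, a list added after the values were seen, 4 of 13 members were higher and 0 lower (median 0.079). These were Ppp1r15a, which relieves the block on translation, with 91.7 and 15.8 CPM (2.54, 95% CI 2.39 to 2.68), the sensor Ern1 with 603 and 120 CPM (2.33, 95% CI 2.28 to 2.38), the co-chaperone Dnajb9 (1.27) and the kinase Eif2ak3 (0.84). The 76 cytosolic ribosomal protein genes, also added, had 0 past 1.5-fold and a median of -0.08.

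Other inducible programs differed in part. Of 16 genes of the NF-κB pathway, 7 were higher and 0 lower, with a median of 0.42. Among them were the feedback inhibitors Tnfaip3 and Nfkbia (249 and 124 CPM, 1.00, 95% CI 0.94 to 1.06), and Nfkbiz (149 and 61.1 CPM, 1.29, 95% CI 1.21 to 1.37). Also higher were the subunits Rel (0.90) and Relb (0.83), and Birc3 and Gadd45b. The subunits Nfkb1 and Rela stood at 0.26 and -0.03. Of 11 genes of the glucocorticoid receptor and its targets, 7 were higher and 0 lower (median 1.17), among them the kinase Sgk1 with 129 and 27.7 CPM (2.22, 95% CI 2.11 to 2.34). Dusp1 and Cxcr4 belong to this list too, while the target Fkbp5 was at 93.1 and 115 CPM (-0.31). Of 7 clock genes, 4 were higher and 0 lower (median 0.67), with Bhlhe40, a repressor of the clock and of IL-10, at 255 and 77.4 CPM (1.72, 95% CI 1.65 to 1.79), Per1 at 33.4 and 12.1 CPM (1.46, 95% CI 1.28 to 1.64), Nr1d2 at 0.91 and Cry1 at 0.67. Of 24 genes that respond to cyclic AMP or regulate it, a list added after the values were seen, 11 were higher and 1 lower (median 0.40). This list shares higher members with those above, namely Nr4a1, Nr4a2, Nr4a3 and Fosl2 with the immediate early genes and Per1 with the clock and glucocorticoid genes. The higher ones included 4 phosphodiesterases, which degrade cyclic AMP, with Pde4d at 97.9 and 21.7 CPM (2.17), and the lower one was the adenylyl cyclase Adcy7 (109 and 178 CPM, -0.70, 95% CI -0.77 to -0.64).

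Cytokine signalling differed at single genes. Il12rb2, the signalling chain of the IL-12 receptor, had 1393 CPM in lung and 360 in blood (1.95, 95% CI 1.92 to 1.98), and was found in 92.5% and 58.6% of thinned cells (97.1% and 80.4% without thinning). Stat4, which carries its signal, had 1278 and 762 CPM (0.75, 95% CI 0.72 to 0.77). The partner chain Il12rb1 was at 6.65 and 11.5 CPM, and the IL-18 receptor genes Il18r1 (-0.07) and Il18rap (0.23) were within 1.5-fold. Of 9 genes of this pathway 2 were thus higher and 0 lower, with a median of -0.02. In the IL-2 and IL-15 pathway 1 of 12 was higher, near the share of all genes (6.46%), and the median was 0.19. The higher gene was the feedback inhibitor Socs3 at 32.8 and 5.24 CPM (2.65, 95% CI 2.40 to 2.90). Of 13 interferon-stimulated genes 0 were higher in lung and 2 lower (median -0.32), and Ifi206 was at 59.3 and 98.9 CPM (-0.74, 95% CI -0.83 to -0.65) and Xaf1 at 28.0 and 42.4 CPM (-0.60).

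**Figure D4:**
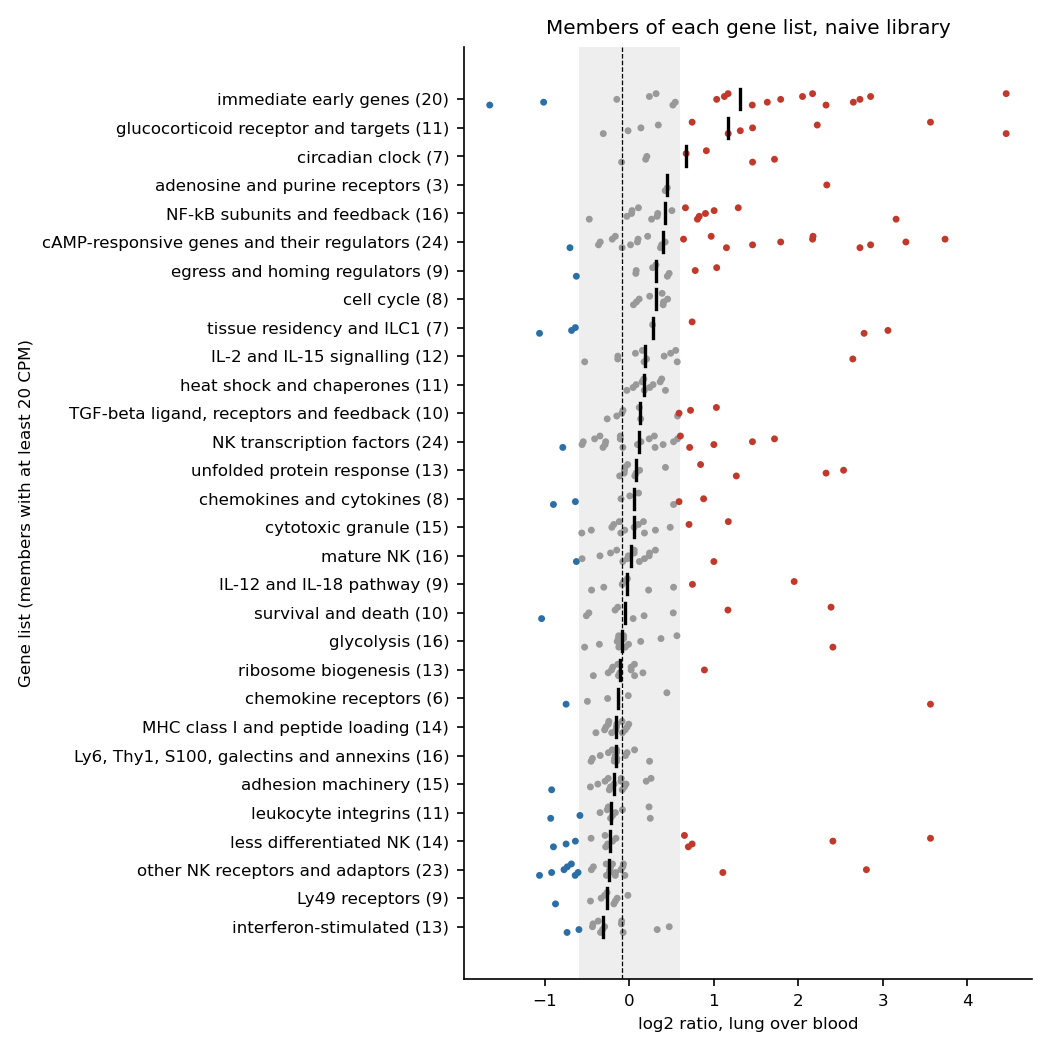
Log2 ratio of lung over blood for each list member with at least 20 CPM (points, the number of such members in brackets), with the list median as a black bar and the median of all genes as a dashed line. Red and blue points are at least 1.5-fold higher or lower in lung, and the lists run from immediate early genes with a median of 1.31 down to interferon-stimulated genes with -0.32.

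Several NK receptor genes were lower in lung. Of 23 other NK receptors and adaptors, 7 were lower and 2 higher, with a median of -0.24. Ncr1, which encodes NKp46 and whose product was used to sort the cells, had 896 CPM in lung and 1533 in blood (-0.77, 95% CI -0.80 to -0.75). Klrk1, which encodes NKG2D and was singled out after its value was seen, had 946 and 1523 CPM (-0.69, 95% CI -0.71 to -0.66). Cd226, which encodes DNAM-1, had 83.8 and 159 CPM (-0.92, 95% CI -0.997 to -0.84), and Klrb1f was at -0.74. Crtam (-1.06), Klri1 (-0.64) and Cd244a (-0.61) were the remaining lower genes. TMM scaling raised the log2 ratios of the named genes by a median of 0.079, and such a shift leaves Klri1 and Cd244a short of 1.5-fold. The signalling adaptors Fcer1g (-0.05), Tyrobp (-0.10) and Hcst (-0.07) were close to all genes. The 2 higher receptors were Tigit, an inhibitory receptor for the ligands of DNAM-1, with 28.5 and 4.07 CPM (2.81, 95% CI 2.53 to 3.10), and Klrb1b, an inhibitory receptor of the NKR-P1 family, with 423 and 197 CPM (1.11, 95% CI 1.06 to 1.15). All 9 Ly49 genes, which encode receptors for MHC class I, had values below 0 (Klra9, at -0.02, lies above 0 with TMM scaling), and 1 of them, Klra10, was past 1.5-fold (-0.88, list median -0.27). These genes are near-identical in sequence, so the division of reads among them is uncertain. None of 14 MHC class I and peptide loading genes was past 1.5-fold (median -0.16).

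Most genes of maturation and killing were close to equal. Of 16 genes of mature NK cells 1 was higher, 1 lower and 14 in between, with a median of 0.02. Among all genes 6.46% were higher and 3.06% lower. Gzma (11315 and 10882 CPM, 0.06), Gzmb (1070 and 864 CPM, 0.31, 95% CI 0.28 to 0.33) and Prf1 (1380 and 1220 CPM, 0.18), which encode granzymes and perforin, differed by less than 1.5-fold. So did Cx3cr1, the fractalkine receptor (94.3 and 95.2 CPM, -0.01, 95% CI -0.09 to 0.07), Klrg1 (-0.08) and Itgam (-0.22). Zeb2, a transcription factor needed for terminal maturation, had 1289 and 1901 CPM (-0.56, 95% CI -0.58 to -0.54). This lay just short of 1.5-fold, and at a hashtag share of 99% Zeb2 was past it (-0.59). The higher gene was Irf8, a transcription factor of the antiviral response, with 1248 and 624 CPM (1.00, 95% CI 0.97 to 1.03), and the lower one S1pr5, the receptor through which NK cells leave tissue, with 118 and 183 CPM (-0.63, 95% CI -0.69 to -0.56). With TMM scaling S1pr5 stood at -0.55, short of 1.5-fold. In the granule list, 2 of 15 were higher and 0 lower, both of them serpins, which inhibit proteases. Serpinb9, which protects the killer from its own granzyme B, had 889 and 395 CPM (1.17, 95% CI 1.14 to 1.20), and Serpinb6b 480 and 294 CPM (0.71). Of the effector cytokines Ifng was at 117 and 81.7 CPM (0.52), Ccl3 at -0.10 and Ccl4 at 0.00. Relative to the median ratio of all genes, Ifng stood at 0.61, past 1.5-fold. The death ligand Fasl was past 1.5-fold with 368 and 200 CPM (0.88, 95% CI 0.83 to 0.93).

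Genes of less differentiated cells split. Of 14 such genes 5 were higher and 3 lower, with a median of -0.23. Emb, which encodes embigin, a glycoprotein that escorts lactate transporters (ENSMUSG00000021728, chromosome 13 from 117208536 to 117274415), had 362 CPM in lung and 68.2 in blood (2.41, 95% CI 2.34 to 2.48). Besides Cxcr4, the costimulatory receptor Cd28 (66.8 and 41.2 CPM, 0.70, 95% CI 0.59 to 0.81), Kit (0.65) and Il7r, the IL-7 receptor (22.2 and 13.2 CPM, 0.74, 95% CI 0.55 to 0.93), were higher. Lower were the chemokine Xcl1 (271 and 422 CPM, -0.64, 95% CI -0.68 to -0.60), the lymphotoxin chain Ltb (19.8 and 37.0 CPM, -0.90, 95% CI -1.06 to -0.74) and the chemokine receptor Cxcr3 (12.95 and 21.8 CPM, -0.75, 95% CI -0.95 to -0.55). Cd27 (54.4 and 62.5 CPM, -0.20), Ccr2 (-0.26) and Thy1 (-0.45) were within 1.5-fold. With every cell thinned to the same depth the ratio of Il7r was 0.44. Xcl1 fell short of 1.5-fold with TMM scaling (-0.56) and at a hashtag share of 99% (-0.50). As an alternative, cells with a UMI of a listed T cell, B cell, monocyte, macrophage, neutrophil, platelet or lung epithelial marker were removed. Among the 412 lung and 389 blood cells left, Il7r stood at -0.99 and Cxcr3 at 0.01. Other markers, such as those of endothelium and group 2 innate lymphoid cells, were not used for this removal.

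Emb was unevenly spread over the lung cells. Of the thinned lung cells 74.2% had no UMI of Emb, where 39.1% would be expected if all cells held the same amount, and 11.6% had 3 or more, against 1.72% of blood cells. Without thinning, at least 1 UMI of Emb was found in 31.3% of lung and 18.3% of blood cells. For Dusp1 the share of lung cells without a UMI was 62.6%, against 56.1% for an even amount. It was 41.7% against 27.3% for Nr4a2 and 19.2% against 3.67% for Junb, so that these genes were uneven as well. The 418 lung cells with 3 or more UMIs of Emb had more Cd27 (144 against 32.8 CPM), Ccr2 (439 against 154) and Ltb (82.9 against 5.26) than the 2662 lung cells with none, and less Gzmb (376 against 1297), Cx3cr1 (27.1 against 120) and Klrg1 (63.0 against 211). Several genes that were higher in lung than in blood were also higher in the cells with Emb, such as Cebpb (log2 ratio 0.91, 95% CI 0.71 to 1.11), Cxcr4 (0.87, 95% CI 0.70 to 1.05), Fos (0.87, 95% CI 0.62 to 1.12), Crem (0.52, 95% CI 0.39 to 0.65) and Nr4a2 (0.23, 95% CI 0.10 to 0.35). For Dusp1 (180 against 196 CPM) and Rgs1 (329 against 350 CPM) the counting interval of the ratio included 0. Other genes higher in lung than in blood were lower in the cells with Emb. Among these were Irf8 (-0.74, 95% CI -0.83 to -0.65), Il12rb2 (-0.39, 95% CI -0.47 to -0.31) and Sgk1 (-0.48, 95% CI -0.75 to -0.21). Fasl (-0.30, 95% CI -0.45 to -0.15) and Nfkbia (-0.24, 95% CI -0.43 to -0.06) were lower too. The lung cells with no UMI of Emb were also compared with all thinned blood cells. Their log2 ratios over blood were 3.24 for Cebpb, 3.56 for Cxcr4, 2.44 for Fos, 3.19 for Crem, 2.84 for Nr4a2, 4.43 for Dusp1 and 3.19 for Rgs1. Both groups of lung cells were chosen by Emb itself, so the values describe them only.

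Dividing the thinned cells by detected Cd27 and Itgam gave ratios within each stage. Of lung cells 6.71% (95% CI 5.92 to 7.58) had a UMI of Cd27 only, 5.26% (95% CI 4.56 to 6.05) of both, 50.4% (95% CI 48.7 to 52.0) of Itgam only and 37.6% (95% CI 36.0 to 39.2) of neither. Of blood cells these were 7.41% (95% CI 6.64 to 8.23), 6.97% (95% CI 6.22 to 7.77), 53.3% (95% CI 51.8 to 54.8) and 32.3% (95% CI 30.9 to 33.8). A cell without a UMI may still express the gene, so the classes are coarse. The 15 genes highest in lung had ratios between 2.41 and 4.91 over all 4 classes, with class medians from 3.23 to 3.65. The 15 lowest had ratios between -2.06 and -0.13, with class medians from -1.38 to -1.06, and 15, 13, 14 and 15 of them were past 1.5-fold in the order given. Il12rb2 was at 2.18, 1.90, 1.98 and 1.90 in the order given, Irf8 at 1.12, 1.10, 0.99 and 0.96, and Ncr1 at -0.94, -0.83, -0.73 and -0.78. The 30 genes had the sign of the whole tissue's ratio in each of the 4 classes. In cells with both, the intervals of Crtam (-0.13, 95% CI -1.15 to 0.84) and Bcl2l1 (-0.54, 95% CI -1.27 to 0.14) included 0. These genes were chosen by their ratios in the same cells, so a kept sign is in part built in. The plot of ratios within classes shows 15 of the named genes.

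**Figure D5:**
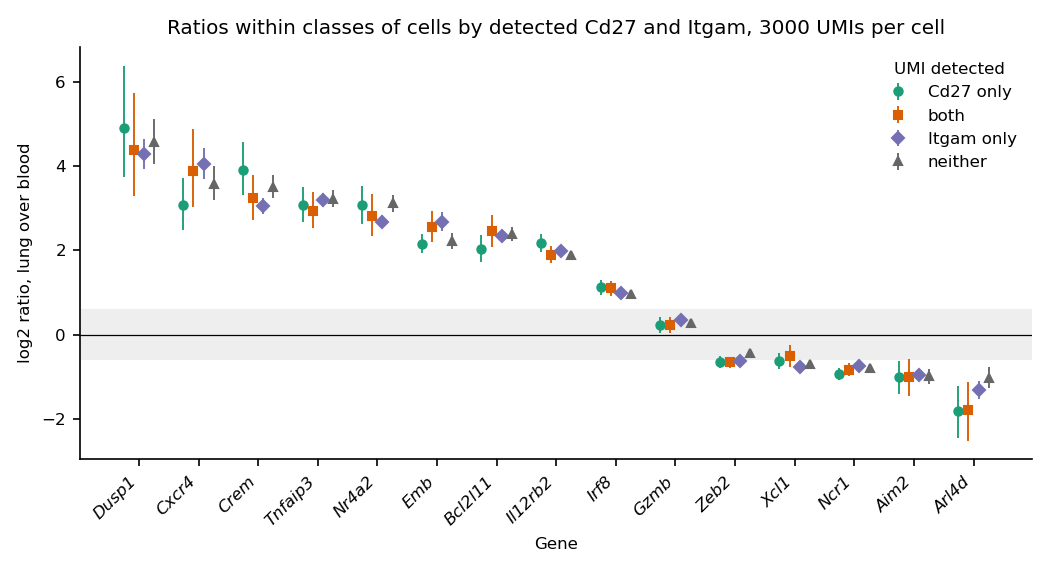
Log2 ratio of lung over blood (vertical) for 15 genes within 4 classes of thinned cells, by whether a UMI of Cd27, of Itgam, of both or of neither was found, with 95% counting intervals. Dusp1, Cxcr4, Crem, Tnfaip3, Nr4a2, Emb, Bcl2l11, Il12rb2 and Irf8 lie above the grey band of ratios under 1.5-fold in all 4 classes, and Ncr1, Aim2 and Arl4d below it.

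Adhesion, egress and homing were compared because circulating NK cells use them to enter, stay in and leave tissue. Of 11 leukocyte integrin genes with at least 20 CPM 0 were higher and 2 lower, with a median of -0.22. Below this minimum Itgb3 was higher in lung (16.9 and 5.27 CPM, 1.68), and Itgad (-0.81) and Itgae (-1.14) were lower. Itga4, the α4 chain that binds VCAM-1, had 1141 and 1713 CPM (-0.59, 95% CI -0.61 to -0.56), which is at the threshold and short of it with TMM scaling. Itga5 had 14.5 and 27.7 CPM (-0.93, 95% CI -1.12 to -0.75). Itgal (-0.20) and Itgb2 (-0.08), which encode LFA-1, and Itgb1 (-0.25), Itgb7 (-0.17) and Itga1 (14.5 and 16.5 CPM, -0.18) were within 1.5-fold. Of 15 genes of the adhesion machinery 1 was past 1.5-fold, Cd226. Among 9 regulators of egress and homing, Klf6 (301 and 147 CPM, 1.03) and Foxo1 (181 and 105 CPM, 0.78) were higher and S1pr5 lower, with a median of 0.31. Of 7 residency genes with enough counts 3 were higher and 3 lower. Rgs1 and Rgs2, which blunt signalling from chemokine receptors, had 317 and 38.0 CPM (3.06, 95% CI 2.97 to 3.15) and 355 and 51.7 CPM (2.78, 95% CI 2.70 to 2.86), and Cd160 was at -0.68. Itgae was at 4.35 CPM in lung and 9.57 in blood, and Cxcr6, a marker of resident cells, at 3.45 and 2.57.

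TGF-β restrains NK cells and induces its own feedback genes. Of 10 genes of ligand, receptors and feedback 3 were higher and 0 lower, with a median of 0.13. Smad7, an inhibitor of the pathway, had 131 and 79.2 CPM (0.72, 95% CI 0.65 to 0.80), Skil 111 and 54.4 CPM (1.03, 95% CI 0.94 to 1.12), and Tgfb1 161 and 107 CPM (0.59, 95% CI 0.52 to 0.66), which lay at the threshold and was at 0.47 after thinning. Ski was at -0.15. Pmepa1, a target of the pathway, stood below the minimum with 19.7 and 2.17 CPM (3.18, 95% CI 2.81 to 3.58). Of 10 genes of survival and death 2 were higher and 1 lower. Bcl2l11, which encodes the pro-apoptotic BIM, had 440 and 84.1 CPM (2.39, 95% CI 2.32 to 2.45), Bcl2a1d 20.7 and 9.21 CPM (1.17), and Bcl2l1 was the lower one. Of 24 NK transcription factors 5 were higher and 1 lower (median 0.12), with Nfil3 at 66.2 and 24.1 CPM (1.46, 95% CI 1.33 to 1.59), Hif1a at 0.71 and Ikzf3, which encodes Aiolos, at 449 and 777 CPM (-0.79, 95% CI -0.82 to -0.76). P2ry10, a lysophospholipid receptor, was at 242 and 47.9 CPM (2.34, 95% CI 2.25 to 2.42). The genes of glycolysis (median -0.08), of ribosome biogenesis (-0.11) and of a list of Ly6 and S100 proteins, Thy1, galectins, annexins, Vim and Crip1 (-0.16) stayed close to all genes. Emb was the only one of 16 glycolysis genes past 1.5-fold, Odc1 of polyamine synthesis (68.2 and 36.9 CPM, 0.89) the only one of 13 in ribosome biogenesis, and of the 16 tested members of the list with Ly6 and S100 proteins 0 were. The 8 cell cycle genes were within 1.5-fold too, with a median of 0.31.

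Most markers of other cells were low in both tissues. The summed level of 12 monocyte and macrophage markers was 43.6 CPM in lung and 78.7 in blood. Most of it was Ms4a6c, at 38.0 and 77.3 CPM, while Lyz2 of myeloid cells was higher in lung, at 3.37 and 0.600 CPM. The 8 neutrophil markers summed to 12.4 and 26.6 CPM. The 11 markers of lung epithelium summed to 1.15 and 1.30 CPM, and the 8 of fibroblasts to 0.72 and 0.67. The 10 endothelial markers summed to 127 and 132 CPM. T cell markers summed to 492 and 479 CPM, carried by Trbc1 and Trbc2, which NK cells transcribe, with Cd3e at 1.66 and 1.90. At least 3 of 10 T cell markers were found in 3.86% of lung and 4.67% of blood cells. Of 8 markers of group 2 innate lymphoid cells 3 reached 20 CPM, and 2 of these were higher in lung, Rora with 116 and 56.3 CPM (1.04) and Icos with 61.5 and 15.1 CPM (2.03), while Gata3 was at -0.41, Il13 at 0 in both and Il1rl1 at 0.469 and 0.133. The 8 summed to 246 and 157 CPM, and 3.21% of lung and 1.44% of blood cells had at least 3 of them. Their part in the ratios was not tested.

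The same ratio was taken in the 2 libraries from mice with tumor cells, which are separate libraries from other mice. At 6 h, 365 of the 429 genes higher in naive lung were past 1.5-fold as well, which is 85.1% of the naive list and 90.6% of the 403 genes (6.12%) at 6 h. Of the 203 lower genes 125 were, 61.6% of the naive list and 76.2% of the 164 (2.49%) at 6 h. All 429 and all 203 had the sign of the naive ratio. At 14 days 212 of 429 were shared, 49.4% of the naive and 58.7% of the 361 genes (5.58%) there, and 66 of 203, 32.5% of the naive and 29.9% of the 221 (3.42%) there. The sign was kept by 411 and 178 genes. Dusp1 stood at 4.42 at 6 h and 4.16 at 14 days, Cxcr4 at 3.52 and 2.88 and Emb at 2.42 and 2.66. Il12rb2 was at 1.93 and 0.70, Irf8 at 0.84 and 0.12 and Ncr1 at -0.73 and -1.06. The preparation of lung and blood is described in the same way for all 3 libraries.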

How the data were processed

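The authors deposited unfiltered UMI count matrices of 3 droplet libraries (10x 3' v3.1 chemistry) with 2 hashtag rows each. Per the labels, reads were aligned to GRCm38.p6 with the GENCODE M23 annotation. Cell Ranger is given as 7.0.1 in the extract protocol and as 7.1.0 in the file headers, and the submitters' processing notes name Seurat 5.0. The naive file held 1743618 barcodes.

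Barcodes with 800 to 5000 detected genes, at most 6% mitochondrial counts and at least 90% of hashtag counts on 1 tag were kept. Counts were summed per tissue and divided by the total to give CPM with exact Poisson intervals, and the ratio of the sums was given an exact conditional binomial interval. Genes with at least 20 CPM in either tissue entered the counts, and 1.5-fold was the limit. With 1 sample per tissue no test was made, and the intervals cover counting error only. Each cell was also thinned once to 3000 UMIs, which left out 86 lung and 75 blood cells. Doublets were limited by the hashtags and the upper limit on genes. Scrublet marked 4 of 8043 cells (0.0497%), too few for its calls to be used.

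Genes are named by rule: the 15 largest and 15 smallest ratios among genes with at least 50 CPM, up to 4 members past 1.5-fold in each direction of a list, the genes the study names for these cells, and list members under 1.5-fold given as values. Junb, Klrk1, Klri1, Cd244a and the genes of the closing observations fall outside this rule and were chosen after their values were seen. Kit, Relb, Birc3, Gadd45b, Pde4d, Nr4a1 and Nr4a3, all past 1.5-fold, fall outside it as well. Genes and lists were chosen with earlier results of these data known. Gene positions come from GENCODE M21, which matched 25461 of 25906 genes, and promoters from RefSeq on GRCm38.p6. The counting was tested on simulated Poisson sums, which leave out the uneven spread of transcripts over cells. Python 3.11.15, numpy 2.4.6, scipy 1.17.1, pandas 2.3.3, scanpy 1.11.5, R 4.3.3 and edgeR 4.0.16 (for TMM factors alone) were used. The alternatives were other filters on cells, hashtags, CPM and fold, other scalings, thinning, equal weights for cells, removal of cells with high gene numbers, high Scrublet scores or markers of other cells, and subtraction of free RNA. The removal of marker cells that kept 7 markers expressed by NK cells was chosen after seeing the data.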

Additional observations from a re-analysis of the deposited data

Results flagged for a closer look

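Ltb, the lymphotoxin chain of the less differentiated NK list, was lower in lung than in blood in the naive library (-0.90 on the log2 scale) and higher in lung 14 days after tumor cells (1.35). Xcl1, a chemokine that attracts dendritic cells, had the same pattern, with -0.64 in the naive and 1.30 in the 14-day library. Each was singled out among the named genes because the 2 libraries lay on opposite sides of 1.5-fold. For Xcl1 this no longer held with TMM scaling of the naive library (-0.56) or at a hashtag share of 99% (-0.50). Over all genes tested, 1 of the 429 higher genes (Tmtc1) was past 1.5-fold the other way at 14 days. So were 5 of the 203 lower ones, which were Clec2i, Herc6 and Ifi208 besides Ltb and Xcl1. With 1 library per time the difference was not tested.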

How the results depend on the processing

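No paired analysis was possible because each of the 3 groups is 1 library, so the groups share fewer than 2 replicate numbers, and the naive ratio rests on 1 pair of tissues. The number of genes higher in lung was 429, and ranged from 312 with at least 50 CPM to 634 with at least 5 CPM, apart from 221 at 2-fold. The number lower in lung was 203, and became 122 with TMM scaling, 124 relative to the median ratio, 90 for genes of 50 CPM or more, 459 with at least 5 CPM and 27 at 2-fold. It was 481 without cells that held a marker of the T cell, B cell, monocyte and macrophage, neutrophil, platelet or lung epithelial lists. This removal left 412 lung and 389 blood cells, and the number was 210 when 7 markers that NK cells express were kept. The first of these removals also turned Il7r from 0.74 to -0.99 and Cxcr3 from -0.75 to 0.011. The cause was not tested. Of 88 named genes past 1.5-fold, 84 to 88 kept direction and fold under the other 13 alternatives, with Itga4, Tgfb1, Xaf1, Xcl1, S1pr5, Cd160 and Il7r short of it in some, and 77 of 87 without marker cells. Without marker cells Cd28, Cxcr3, Cd160, Smad7, Tgfb1, Itga4, Nfkbia (0.36), Rel (0.41) and Cry1 fell short of 1.5-fold. The median of the NF-κB list lay between 0.022 and 0.50 over the alternatives. List medians close to 0 changed sign under at least 1 alternative for mature NK genes (-0.09 to 0.11), the cytotoxic granule (-0.19 to 0.14), chemokines and cytokines (-0.09 to 0.14), chemokine receptors (-0.16 to 0.11), IL-12 and IL-18 (-0.05 to 0.06), glycolysis (-0.12 to 0.0015) and survival (-0.10 to 0.04), and that of residency genes went from 0.27 to -0.40 without marker cells. With free RNA subtracted from both tissues at the blood limit of 3.42%, Dusp1 stood at 5.50. The higher limit of the lung was not applied. A hashtag share of 99% left 1919 lung cells. Low counts limit genes under 20 CPM, and 1 library leaves the spread between mice unknown.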

Other observations

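The largest differences in amount, as opposed to ratio, were in abundant genes, which were chosen after their values were seen. Dennd4a, an exchange factor for Rab GTPases, had 2457 CPM in lung and 611 in blood (log2 ratio 2.01, 95% CI 1.98 to 2.03). Vps37b, a subunit of the ESCRT-I sorting complex, had 1756 and 242 CPM (2.86, 95% CI 2.82 to 2.90). It was found in 95.7% of thinned lung and 46.2% of thinned blood cells, so that 4.35% and 53.8% had no UMI of Vps37b. H3f3b, which encodes histone H3.3, was at 1875 and 1009 CPM (0.89). Zfp36l2, which promotes decay of AU-rich mRNAs, was at 1056 and 337 CPM (1.65), and the antiproliferative genes Btg1 and Btg2 at 1.12 and 1.45. Ifngr1, a chain of the interferon gamma receptor, had 1307 and 652 CPM (1.00), and Ptpn22, a phosphatase that limits lymphocyte activation, 1019 and 464 CPM (1.13).

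On the other side, besides Ncr1, Klrk1, Itga4 and Ikzf3, the amounts were smaller. Myo1f, a class I myosin of leukocytes, had 340 and 618 CPM (-0.86, 95% CI -0.90 to -0.82). Coro2a, a coronin, had 175 and 329 CPM (-0.91), Elf4, an ETS factor, 221 and 371 CPM (-0.75), and Clec2d, a ligand of NKR-P1 receptors, 173 and 305 CPM (-0.82).

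Genes under 50 CPM reached larger ratios. Ier5l was at 26.0 CPM in lung and 0.534 in blood (5.61), Gcnt2 at 30.4 and 1.17 (4.70), and Plk2, a stress-induced kinase, at 30.2 and 1.33 (4.50). G0s2, an inhibitor of lipolysis, was at 9.08 and 34.99 CPM (-1.95).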
